A study of Mus musculus with 7 samples.

Results

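IGHV1-69, one of the heavy chain variable genes of the mouse IGHV1 family, was examined in B cells of lymph nodes because many of its unswitched receptors carried a difference from the germline sequence. Members were cells with exactly 1 productive heavy chain whose first V call was IGHV1-69, and there were 351 of them among 17381 such cells in 6 libraries. The libraries came from deep cervical (dCLN), superficial cervical (sCLN) and inguinal lymph nodes (iLN) of 5xFAD and wild-type (WT) female mice aged 10 to 11 months, with 1 library for each node and genotype. 5xFAD mice, used to model Alzheimer's disease, carry transgenes driven in neurons by the Thy1 promoter and develop amyloid deposits in the brain. WT mice lack the transgenes. Cells were labelled with hashtag antibodies before loading, but the tables used here do not tie cells to hashtags, and neither the number of animals nor the strain background is given in the sources used here. A mixed library, labelled with the 3 nodes and both genotypes, was not used by the selection, and its values are given beside the others. With 1 library for each, a range in parentheses after a share is its exact 95% binomial interval (Clopper-Pearson), which covers counting error alone and not the spread between animals.

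Each B cell builds its heavy chain by joining a V, a D and a J segment, so unmutated cells that use the same V gene share the germline V sequence up to the junction. After activation, activation-induced deaminase (AID) introduces point mutations into the V region and also starts switching from IgM and IgD to IgG, IgA or IgE. Cells with IgM or IgD are called unswitched here and cells with another isotype switched. The V region alternates framework regions (FR), which hold the fold, with complementarity-determining regions (CDR), which form most of the antigen contacts.

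Nearly all members carried 1 of a pair of V sequences that, leaving rarer changes aside, differed at 1 base. Positions are counted from 1 at the 5′ end of V in the gapped alignment of the deposited tables. The commoner sequence had G at position 226 and is called the G version, and the other had T there and is called the T version. A single member matched IGHV1-69*02 instead, which differs from the T version at 2 bases, and it is counted among cells with G but not among cells with the mismatch. The difference from germline, taken against IGHV1-69*01, is T226G. The whole V region of the G version up to the conserved cysteine of FR3 is shown first, because it is the sequence that most members expressed, with capitals at both positions where the IGHV1-69*01 and IGHV1-69*02 germlines differ. It was identical in 218 of the 221 unswitched cells with the mismatch.
G version, V region: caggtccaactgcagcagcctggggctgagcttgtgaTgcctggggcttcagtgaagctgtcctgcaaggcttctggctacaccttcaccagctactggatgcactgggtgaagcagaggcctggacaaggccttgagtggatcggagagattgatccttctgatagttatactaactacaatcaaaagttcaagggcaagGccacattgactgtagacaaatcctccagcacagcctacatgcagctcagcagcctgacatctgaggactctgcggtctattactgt
The stretches around both positions are set side by side to show how the versions relate to the alleles, again with capitals at the differing base. The T version is identical to IGHV1-69*01.
G version, FR1: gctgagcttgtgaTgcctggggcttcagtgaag
IGHV1-69*01 and T version, FR1: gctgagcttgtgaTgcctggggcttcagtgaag
IGHV1-69*02, FR1: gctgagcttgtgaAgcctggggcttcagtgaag
G version, FR3: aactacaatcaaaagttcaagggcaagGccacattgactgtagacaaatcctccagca
IGHV1-69*01 and T version, FR3: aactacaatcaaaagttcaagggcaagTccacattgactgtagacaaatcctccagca
IGHV1-69*02, FR3: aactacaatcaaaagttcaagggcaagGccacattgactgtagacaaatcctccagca
The alleles differ by T41A in FR1 and T226G in FR3, named from IGHV1-69*01. The G version has the base of IGHV1-69*01 at position 41 and the base of IGHV1-69*02 at position 226, so it lies 1 base from each allele.

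The V calls followed the base without exception. This was largely set by the calling, because up to the conserved cysteine the alleles differ only at positions 41 and 226. All 126 members with T were called IGHV1-69*01, 224 of the 225 with G were called jointly IGHV1-69*01 and IGHV1-69*02, and the remaining G cell was called IGHV1-69*02 alone. That WT dCLN cell was an IgM cell with 5 heavy chain UMIs, IGHJ2 and IGKV3-5, and it matched IGHV1-69*02 with no mismatch. No member's call named another gene, and the second call set in the tables, which does not give alleles, was IGHV1-69 for all 351. In unswitched cells with no further mismatch the deposited V identity, the fraction of V bases equal to germline, was 1 for the T version and averaged 0.997 for the joint calls.

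Position 226 lies in FR3 and is the first base of codon 76, which read TCC, a serine codon, in the T version and GCC, an alanine codon, in the G version. In the GRCm38 assembly with GENCODE M21, Ighv1-69 spans 115623161 to 115623595 on the minus strand of chromosome 12, and the base is at 115623253 in exon 2, which encodes nearly all of V and runs from 115623161 to 115623465. The annotated Ighv1-69 transcript has the T of the T version there. The 288 bases of the T version were found in 2 of 141767 annotated transcripts, both of Ighv1-69, and those of the G version in 0. The 58 bases of FR3 shown above for the G version were found in 2 transcripts, both of Ighv1-74, and those of the T version in 2, both of Ighv1-69.

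T at position 226 was the exception in the gene family. For each of 51 IGHV1 genes the germline most often aligned to was taken. Of these 51 germlines 50 have G there and 1, that of IGHV1-69 (allele IGHV1-69*01), has T, while IGHV1-69*02 has G. The nearest germlines by identity to the T version were IGHV1-50 and IGHV1-59, with 8 differences each over 288 bases (97.2%), and IGHV1-74 with 11 (96.2%). All of them have G at the position, so the G version differed from them by 7, 7 and 10 bases. From IGHV1-74 the G version differed at 10 positions, all 5′ of position 226. After position 190, the nearest of these, the sequences were the same over 119 bases to the end of FR3.

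Parts of the transcript outside V were the same in most cells of both versions. Whether these parts differ between alleles or related genes was not examined. The 57-base leader matched the annotated Ighv1-69 transcript in 225 of 225 cells with G and in 125 of 126 cells with T. The 30 bases upstream of the start codon, in cells whose contig reached that far, were the same sequence in 159 of 167 cells with G and in 85 of 88 with T. The first 30 bases after J in IgM cells were the same in 179 of 180 cells with G and in 89 of 89 with T. They belong to the constant region, which IgM cells share whatever V gene they use, so they say nothing about V.

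The mismatch was in most unswitched cells but not in all of them. Over the 6 libraries it was present in 221 of 343 unswitched cells, or 64.4% (59.1 to 69.5), while 121 cells had T and 1 was the IGHV1-69*02 cell. In the dCLN it was present in 50 of 69 unswitched cells of 5xFAD mice (72.5%, 60.4 to 82.5) and 45 of 68 of WT mice (66.2%, 53.7 to 77.2). In the sCLN the counts were 36 of 55 in 5xFAD (65.5%, 51.4 to 77.8) and 44 of 74 in WT (59.5%, 47.4 to 70.7). In the iLN they were 23 of 34 in 5xFAD (67.6%, 49.5 to 82.6) and 23 of 43 in WT (53.5%, 37.7 to 68.8). Every library therefore held both versions, with G the commoner in each, and the intervals of all 6 overlapped. These shares led to the choice of the gene and are a description. In the mixed library, which the choice did not use, the mismatch was in 30 of 54 unswitched cells (55.6%, 41.4 to 69.1) and the other 24 had T.

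**Figure D1:**
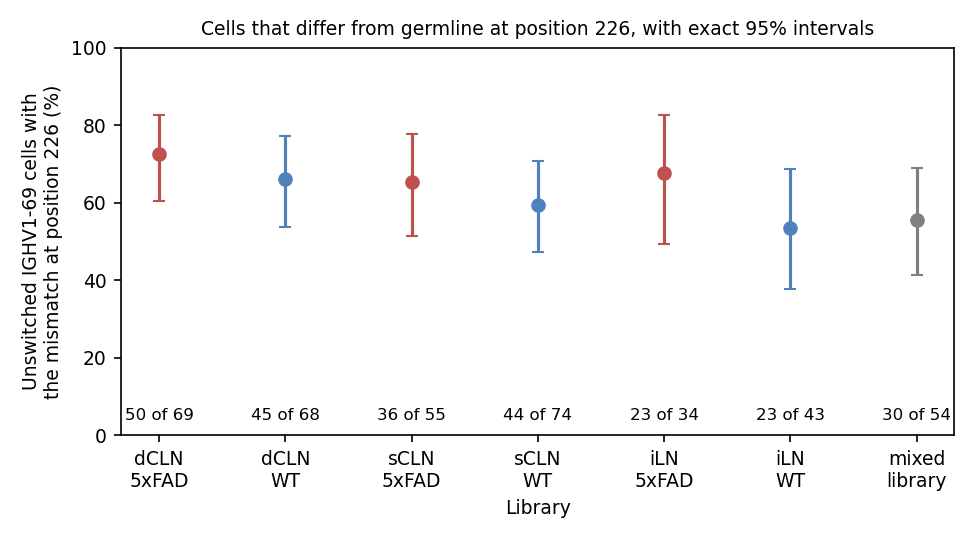
Percent of unswitched IGHV1-69 cells with the T226G mismatch (vertical axis) in each library (horizontal axis; red 5xFAD, blue WT, grey mixed library), with exact 95% intervals and the counts of cells. All shares lie between 53.5% and 72.5%, and all intervals overlap.

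The share with the mismatch was higher in 5xFAD than in WT in 3 of 3 nodes, by 6.29 percentage points (dCLN), 6.00 (sCLN) and 14.2 (iLN). The mean difference was 8.81 ± 4.63 points (SD, n = 3 nodes). These shares led to the choice of the gene, so the difference is a description. With 3 pairs an exact two-sided sign-flip p cannot fall below 0.25, so no call could be made. By isotype the share was 66.5% of 269 IgM cells and 56.8% of 74 IgD cells. IgM cells had the higher share in 3 libraries, the 5xFAD dCLN (80.4% of 56 IgM and 38.5% of 13 IgD cells), WT dCLN and WT iLN, and IgD cells in the other 3.

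The versions were each carried by many separate rearrangements. The 222 unswitched cells with G held 218 distinct heavy chain junctions and the 121 with T held 119. Identical J genes and junctions were shared by 2 cells in 6 cases, of which 4 had G in both cells, 2 had T in both and 0 mixed the bases. None of these pairs held a switched cell, and 1 pair, with T, spanned the WT dCLN and sCLN with different light chains.

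Position 226 stood alone along the V region when cells were compared with the germline they were aligned to. The 224 jointly called members were aligned to IGHV1-69*01, so their difference was counted at position 226. Against IGHV1-69*02 it would be counted at position 41 instead. Of 294 positions compared in unswitched cells, 1 (0.34%) differed from germline in over 50% of cells. The next highest was position 315, past the conserved cysteine and inside the junction, with 3 mismatched cells (0.929%). In all, 15 positions other than 226 had any mismatch. Apart from position 226, 335 of 343 unswitched cells had no mismatch. Of the 8 that did, 5 had G and 3 had T. With position 226 left out, mean V mutation of unswitched members was 0.0189%, and with it counted 0.238%. By library the value without it ranged from 0 in the 5xFAD iLN and WT dCLN to 0.0372% in the 5xFAD sCLN, and unswitched cells of other V genes lay between 0.0117% (5xFAD iLN) and 0.0249% (WT dCLN).

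**Figure D2:**
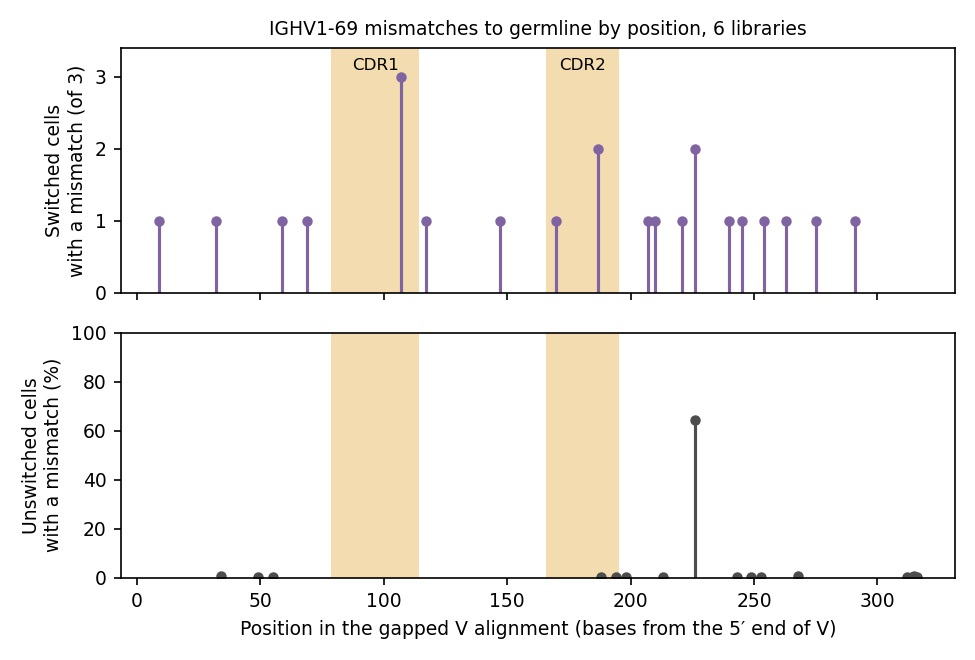
Cells with a mismatch to germline at each position of the gapped V alignment (horizontal axis, bases), as the number of the 3 switched cells (upper panel) and the percent of up to 343 unswitched cells (lower panel). Shaded spans are CDR1 and CDR2. Unswitched cells show 1 tall line, at position 226 with 64.4%, and in the upper panel position 107 is mismatched in 3 cells and position 226 in 2.

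Among other IGHV genes such a position was rare. Of 81 genes with at least 20 unswitched cells, 2 (2.47%) had a position that differed from germline in over 50% of unswitched cells, IGHV1-69 and IGHV2-6-1. The IGHV2-6-1 cells were called jointly with IGHV2-6-2 and all 51 had A73G, in every unswitched cell of each library, from 5 in the 5xFAD iLN to 15 in the 5xFAD dCLN. A mismatch in part of the cells, taken as above 10% and below 90%, limits chosen after seeing the data, occurred at the top position of 3 genes (3.7%). For IGHV4-1 (13 of 98 cells) and IGHV2-6 (3 of 24 cells) that position was 318, inside the junction. Up to the conserved cysteine, IGHV1-69 was the 1 gene of 81 in that range (1.23%), and IGHV5-15, with 3 of 30 cells at position 3, was at the lower limit of 10% and so just outside it.

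**Figure D3:**
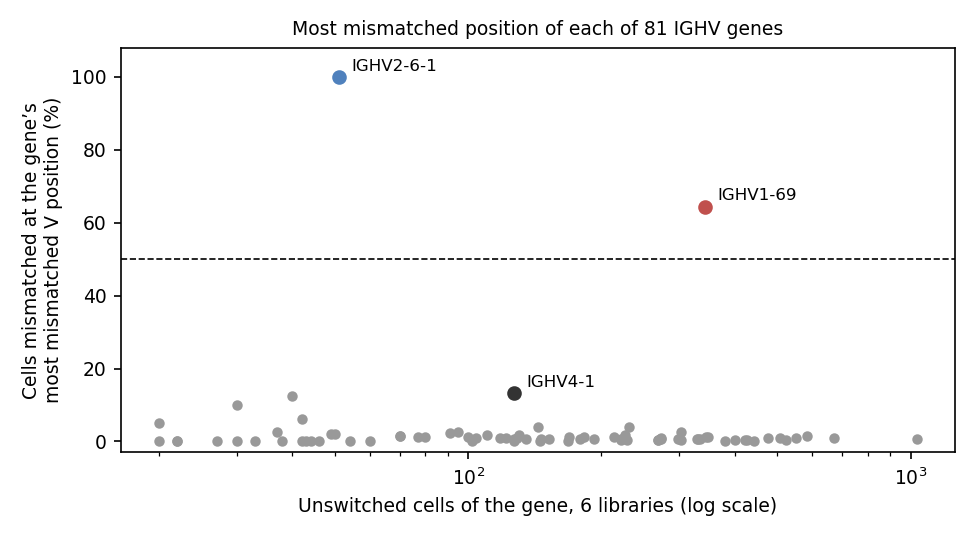
Each point is 1 of 81 IGHV genes, with its number of unswitched cells (horizontal axis, log scale) and the percent of them mismatched at the gene's most mismatched V position (vertical axis). IGHV2-6-1 stands at 100% and IGHV1-69 at 64.4%, both above the dashed line at 50%, and IGHV4-1 follows at 13.3%.

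This base made up a large part of all mismatches counted in unswitched cells. Over all V genes, 16615 unswitched cells had 1138 V mismatches, of which 221 (19.4%) were T226G of IGHV1-69 and 51 (4.48%) were A73G of IGHV2-6-1. Its part was lowest in the WT dCLN, with 16.5% of mismatches, and highest in the 5xFAD iLN, with 24.7%. Of 519 unswitched cells with a single V mismatch, 216 (41.6%) were IGHV1-69 cells with this base. The mean V mutation of unswitched cells was 0.0187% with the position left out and 0.0233% with it counted. By library, left out and counted, it was 0.0185% and 0.0231% for the 5xFAD dCLN and 0.0244% and 0.0292% for the WT dCLN. For the sCLN it was 0.0182% and 0.0236% in 5xFAD mice and 0.0201% and 0.0247% in WT mice. For the iLN it was 0.0115% and 0.0153% in 5xFAD mice and 0.0162% and 0.0199% in WT mice. The 5xFAD sCLN lay below the 5xFAD dCLN with the position left out and above it with the position counted.

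**Figure D4:**
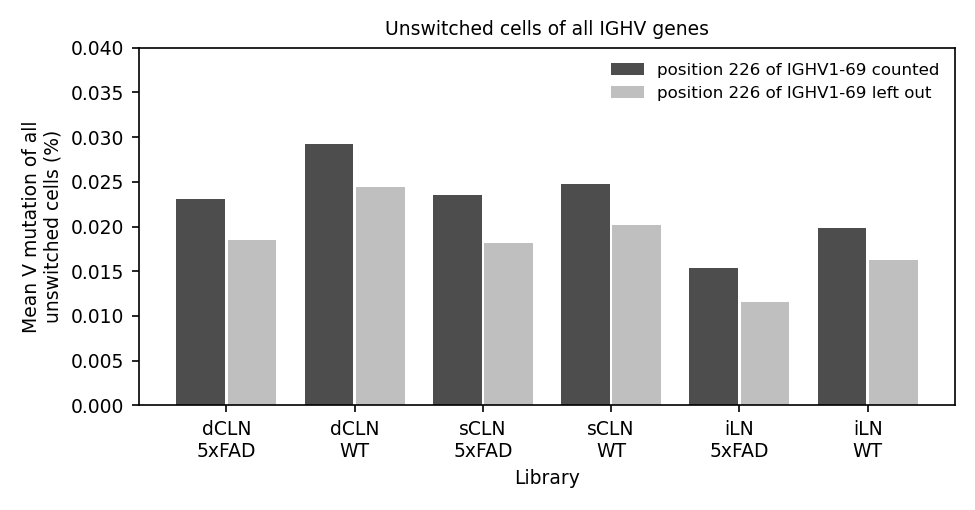
Mean V mutation (vertical axis, percent of V bases) of unswitched cells of all IGHV genes in each library (horizontal axis), with position 226 of IGHV1-69 counted (dark bars) and left out (light bars). The light bar is lower in every library, and the lowest pair is that of the 5xFAD iLN, 0.0153% counted and 0.0115% left out.

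Switched IGHV1-69 cells were few. There were 2 in the 5xFAD dCLN and 1 in the WT sCLN, all of them IgG2b, and 0 in the WT dCLN, 5xFAD sCLN, 5xFAD iLN and WT iLN. Counts of 0 allow shares of up to 4.41%, 5.45%, 8.82% and 6.98% in these libraries. Both 5xFAD dCLN cells had G at position 226 and the WT sCLN cell had T. The 3 V regions are shown with capitals at every mismatch to IGHV1-69*01, because they carry the whole comparison with unswitched cells.
5xFAD dCLN IgG2b cell, 11 mismatches beside T226G: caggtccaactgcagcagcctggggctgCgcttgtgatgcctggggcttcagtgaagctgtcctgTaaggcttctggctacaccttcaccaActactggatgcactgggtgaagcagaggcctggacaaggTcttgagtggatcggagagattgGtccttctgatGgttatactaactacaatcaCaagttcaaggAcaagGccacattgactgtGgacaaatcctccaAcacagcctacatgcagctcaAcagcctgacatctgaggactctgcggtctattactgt
5xFAD dCLN IgG2b cell, 3 mismatches beside T226G: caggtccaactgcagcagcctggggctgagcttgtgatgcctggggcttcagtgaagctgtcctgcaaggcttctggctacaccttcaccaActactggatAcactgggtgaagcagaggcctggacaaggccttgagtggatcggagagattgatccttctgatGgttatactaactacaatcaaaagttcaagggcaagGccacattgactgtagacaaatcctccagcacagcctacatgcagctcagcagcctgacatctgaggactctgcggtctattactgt
WT sCLN IgG2b cell, 7 mismatches: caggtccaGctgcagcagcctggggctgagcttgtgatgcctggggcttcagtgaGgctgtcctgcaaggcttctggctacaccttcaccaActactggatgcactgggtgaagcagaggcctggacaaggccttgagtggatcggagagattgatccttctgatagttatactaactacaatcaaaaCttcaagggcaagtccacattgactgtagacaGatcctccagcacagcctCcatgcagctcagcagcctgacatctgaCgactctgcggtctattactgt
Their heavy chain junctions are shown because all 3 differ, so the cells come from separate rearrangements.
5xFAD dCLN cell with 11 mismatches, IGHJ3: tgtgcaagtgacccggcttcctgg
5xFAD dCLN cell with 3 mismatches, IGHJ3 with IGLV1: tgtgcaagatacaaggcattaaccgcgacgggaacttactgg
WT sCLN cell, IGHJ2 with IGKV3-12: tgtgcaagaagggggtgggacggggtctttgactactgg
The next nearest germline to each was IGHV1-50, at 18, 10 and 14 differences, against 12, 4 and 7 from IGHV1-69*01.

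Outside position 226 the V mutation of the switched members was 3.77% and 1.02% for the 5xFAD dCLN cells and 2.39% for the WT sCLN cell. These contigs rested on 3, 2 and 9 UMIs. Of the unswitched members, the highest values were 2.05% in a WT sCLN IgM cell and 2.05% in a 5xFAD sCLN IgM cell with 122 UMIs, the highest UMI number of any member, each with 6 mismatches. The switched cells at 3.77% and 2.39% thus lay above every unswitched member, and the one at 1.02% above all but those 2. In the mixed library, which holds no members, an unswitched IgM cell with 3 mismatches and 1 UMI was also at 1.02%. Switched cells of other V genes averaged 2.21% in the 5xFAD dCLN (SD over cells 2.03, 157 cells) and 2.87% in the WT sCLN (SD 2.82, 143 cells). The difference from them was -0.152 percentage points on average over the 2 libraries, and the exact sign-flip p of 1 has a smallest possible value of 0.5.

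G107A in CDR1 was in 3 of 3 switched cells and 0 of 343 unswitched members. A187G in CDR2 was in both 5xFAD dCLN cells, and the other 16 changes were each in 1 cell. Both bases also occur in germlines of the family, since 18 of 51 IGHV1 germlines have A at position 107 and 43 have G at position 187. AID prefers the C of AAC, AGC, TAC or TGC, and equally the G of the reverse complements GTT, GCT, GTA or GCA. Read on both strands of the T version, 45 of 288 V positions (15.6%) are such a C or G, each counted once where motifs overlap. The 21 switched-cell changes fell on them 9 times (42.9%), G107A among them, and 14 changes of unswitched members up to the cysteine fell on them 8 times (57.1%). Position 226 is a T in the T version and so cannot be such a site, and the motif says nothing about it. CDR1 and CDR2 hold 48 of the 288 positions and received 6 of the 21 changes. With 3 cells, these counts are a description.

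IGHV1-69 was used at a moderate and similar level in all libraries. It made up 1.84% of 5xFAD dCLN cells (1.45 to 2.32, 72 cells) and 2.07% of WT dCLN cells (1.62 to 2.61, 70 cells). In the sCLN it made up 2.33% in 5xFAD (1.76 to 3.03, 55 cells) and 2.18% in WT (1.72 to 2.73, 75 cells), and in the iLN 1.61% in 5xFAD (1.12 to 2.25, 34 cells) and 2.05% in WT (1.5 to 2.73, 45 cells). In descending order the levels ran from the 5xFAD sCLN through the WT sCLN, WT dCLN, WT iLN and 5xFAD dCLN to the 5xFAD iLN, and the intervals of all overlapped. The mean difference, 5xFAD minus WT, was -0.169 ± 0.298 percentage points (SD, n = 3 nodes, exact sign-flip p = 0.5). The genes whose relative usage over the 6 libraries was most like it, of 57 at 0.5% or more of cells, were IGHV5-12, IGHV1-54 and IGHV1-58. Their mean absolute differences in share over own mean were 0.0819, 0.0821 and 0.0844.

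The switched share of members could not be told from that of other V genes in any single library at this depth. It was 2.82% of members and 4.14% of other cells in the 5xFAD dCLN, 0% and 4.19% in the WT dCLN, 0% and 2.97% in the 5xFAD sCLN, 1.33% and 4.30% in the WT sCLN, 0% and 1.22% in the 5xFAD iLN, and 0% and 1.46% in the WT iLN. In all, 3 of 346 members with an isotype (0.867%, 0.179 to 2.51) and 560 of 16832 other cells (3.33%, 3.06 to 3.61) were switched. In the 4 libraries without a switched member, the limits that a count of 0 allows, given above, lie over the other genes' shares. In the other 2 the members' intervals, 0.343 to 9.81 in the 5xFAD dCLN and 0.0338 to 7.21 in the WT sCLN, hold the other genes' shares. The share was lower in members in all 6 libraries. With so few expected cells the sign of the difference in a library carries little information, so its sign-flip test is not read.

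Of the other 9 measures set against other V genes, 3 were of one sign in all libraries, each with an exact two-sided sign-flip p of 0.0312, the smallest that 6 pairs can give. After correction over 10 measures none of these exact tests passed (adjusted p = 0.0781 for each). The 10 include the switched share, which had the same exact p and so lowered this adjusted value. With so few measures at the smallest exact p none could have passed, however large the differences. Not passing therefore says little about them. IGHJ2 was joined in 41.7%, 50%, 38.2%, 41.3%, 41.2% and 33.3% of members of the 5xFAD dCLN, WT dCLN, 5xFAD sCLN, WT sCLN, 5xFAD iLN and WT iLN, against 32.7% to 34.0% of other cells (mean difference 7.66 ± 5.62 points, SD, n = 6, exact p = 0.0312). Mean junction length was 40.5 to 41.9 bases in members and 42.1 to 42.5 bases in other cells (mean difference -0.942 ± 0.591 bases, SD, n = 6, exact p = 0.0312). The mean log2 number of heavy chain UMIs was 2.71 to 3.10 in members and 3.12 to 3.56 in other cells (mean difference -0.44 ± 0.15, SD, n = 6, exact p = 0.0312). The number of heavy chain UMIs thus moved with the members, and its part in the other differences was not tested. IGHJ4 was used by 21.7% ± 3.83 of members and 25.1% ± 0.902 of other cells, IGHJ3 by 19.7% ± 6.82 and 22.7% ± 0.702, and IGHJ1 by 17.6% ± 8.33 and 18.9% ± 0.490 (SD, n = 6). Those J genes, the IgD share, N region length and kappa share had exact p from 0.125 to 0.781.

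**Figure D5:**
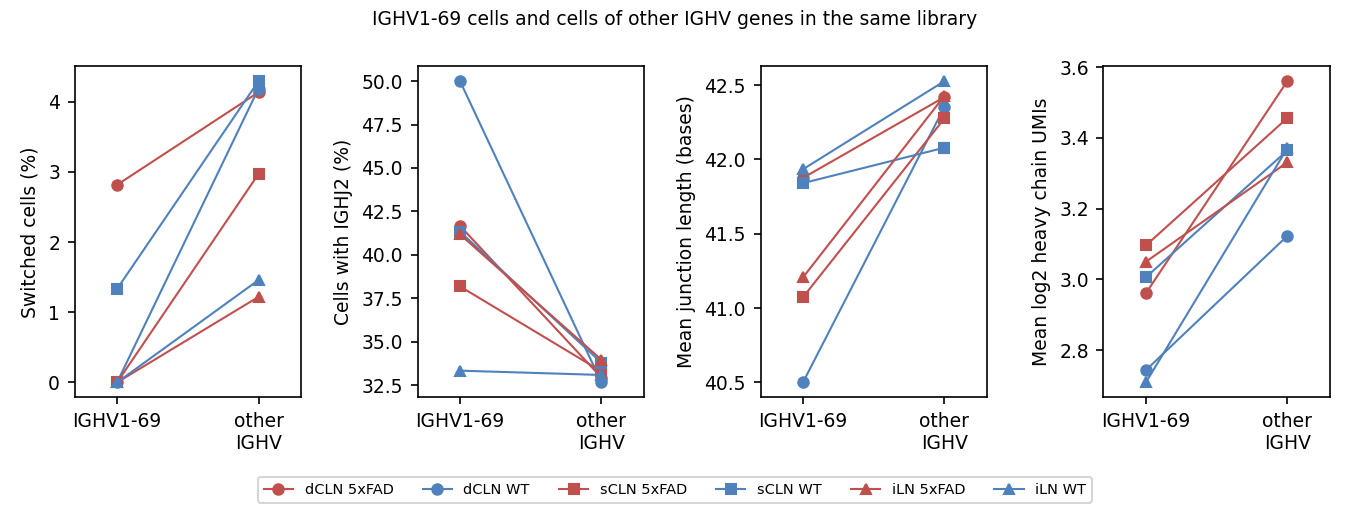
Switched share, IGHJ2 share, mean junction length (bases) and mean log2 heavy chain UMIs (vertical axes) of IGHV1-69 cells and of cells of other IGHV genes, with a line for each library (red 5xFAD, blue WT; circle dCLN, square sCLN, triangle iLN). All 6 lines slope the same way in the last 3 panels, with higher values in IGHV1-69 cells for IGHJ2 and lower ones for the other two. In the first panel all 6 IGHV1-69 values are also the lower ones, but 4 of the 6 are counts of 0. The axes of the last 3 panels do not start at 0.

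None of 10 measures passed the adjusted threshold between the G and T versions. This comparison was added after both bases had been seen. The smallest exact sign-flip p of 6 pairs, 0.0312, becomes 0.312 after correction when 1 measure alone reaches it. A difference in 1 measure alone, or in only a few, could therefore not have passed. Not passing is thus no sign that the versions are alike in these measures. Mean junction length was 41.5, 40.1, 40.5, 40.3, 41.1 and 41.9 bases with G in the 5xFAD dCLN, WT dCLN, 5xFAD sCLN, WT sCLN, 5xFAD iLN and WT iLN. With T it was 42.8, 41.2, 42.2, 44.0, 41.5 and 42.0 bases in the same order. G cells had the shorter mean in 6 of 6 libraries, with a mean difference of -1.36 ± 1.29 bases (SD, n = 6, exact sign-flip p = 0.0312), which did not pass the correction over 10 measures (adjusted p = 0.312). The other 9 measures had exact p from 0.0938 to 1. IGHJ2 was used by 42.5% ± 7.68 of G cells and 37.6% ± 9.93 of T cells, and the IgD share was 19.1% ± 6.87 and 26.4% ± 12.1 (SD, n = 6 libraries). Median heavy chain UMIs were 7 in G cells and 8 in T cells.

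Light chains were varied in both versions. Of 324 members with 1 light chain, 17 had lambda, and G cells used 60 and T cells 46 light chain V genes. The most used were IGKV6-15 (17 cells, 10 with G and 7 with T), IGKV1-135 (16 cells, 12 and 4), IGLV1 (16 cells, 9 and 7), IGKV9-120 (15 cells, 9 and 6) and IGKV10-96 (12 cells, 6 and 6). As shares of cells with 1 light chain, IGKV9-120 was at 4.63% in members and 1.59% in cells of other V genes, IGKV1-135 at 4.94% and 2.79%, IGKV6-15 at 5.25% and 3.39%, IGLV1 at 4.94% and 3.55%, and IGKV10-96 at 3.70% and 5.51%. These 5 were picked by their use in members, so the shares are a description.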

How the data were processed

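Receptor libraries of single B cells came from a 10x 5′ kit, as the labels' protocols state. Per the submitters' processing notes, which give no roles, the tools were Cell Ranger 6.0.1 and Seurat 4.1.0 and the build mm10. Each line of a deposited table is 1 productive contig with its V, D and J calls and germline alignment. The germline set behind the alignments is not given in the sources used here. Both UMI numbers and read numbers are counts the authors deposited, and V identity is a fraction the authors deposited, per the file headers. Contigs are consensus sequences, so support for single bases in reads was not analysed here. Libraries held 2398 to 4411 barcodes and 99906 to 312484 UMIs.

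Cells with 1 heavy chain were kept, so barcodes with several heavy chains were set aside, and doublets were not called otherwise. V bases were compared with the aligned germline, gaps and ambiguous bases left out, and positions where over 50% of unswitched cells differed were listed. Mutation of a switched cell is its percentage of differing V bases without that position. Measures were compared within libraries by exact two-sided sign-flip tests with Benjamini-Hochberg adjustment over 10 measures (Python 3.11.15, scipy 1.17.1). The annotation was GENCODE M21 on GRCm38, also called mm10. For counts of 0, 3 counts set the upper limit. Of 19634 single-heavy barcodes 233 recurred between libraries, among them 0 IGHV1-69 barcodes. Tested on simulated data, the mismatch counter was wrong in 0 of 500 sequences. Members, lists and tests were chosen with earlier results of these data known. Named genes were all J genes, the 5 light chain V genes most used, every IGHV gene with such a position, the 3 nearest in sequence and the 3 nearest in usage. Genes whose top position was at 10% or more and up to 50% were named after their values were seen. Alternatives varied the UMI minimum, the calls, clones, V ends, isotypes, thresholds and libraries.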

Additional observations from a re-analysis of the deposited data

Results flagged for a closer look

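The difference in IGHV1-69 usage between genotypes was not of one sign. As percentage points, 5xFAD minus WT, it was -0.230 (dCLN), 0.154 (sCLN) and -0.432 (iLN). With 1 library per node and genotype, whether the nodes differ was not tested, and the intervals of the libraries overlapped. The mismatch was also present in data that the comparisons did not use. It was in 55.6% of unswitched IGHV1-69 cells of the mixed library. In barcodes with 2 or more heavy chains, left out as possible doublets, 17 of 27 IGHV1-69 chains had G (63.0%) and 10 had T. Of these 26 barcodes 1 held 2 IGHV1-69 chains, and 0 held G and T together.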

How the results depend on the processing

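The share of unswitched members with the mismatch was 64.4% and ranged from 56.8% to 66.5% over the alternatives. The value of 56.8% was that of IgD cells alone, in which the 5xFAD dCLN was at 38.5% of 13 cells and the WT iLN at 37.5% of 8, and leaving out 1 library gave 62.4% to 66.0%. No position of IGHV1-69 passed a threshold of 90% of unswitched cells (0 positions), and 1 gene, IGHV2-6-1, did. Without positions past the conserved cysteine, an alternative chosen after seeing the data, 1 gene in place of 3 was mismatched in above 10% and below 90% of cells. The difference in V mutation of switched members from other genes changed sign, to 0.533 percentage points with at least 3 UMIs and 0.0106 with position 226 counted, and ranged from -0.486 to 0.183 with 1 library left out, positive without the WT sCLN. It rests on 3 cells.

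Of the 10 measures set against other V genes, 0 passed an adjusted p of 0.05 in any setting. With 5 libraries the smallest possible exact p is 0.0625, and with 6 the limit of the correction given above applies. The IGHJ2 share, junction length and UMI differences kept their sign in all settings. The IgD share difference changed sign, to 0.328 with at least 3 UMIs, and ranged from -0.836 to 0.438 with 1 library left out, positive without the 5xFAD sCLN, WT sCLN or WT iLN. With 1 library left out the IGHJ1 difference ranged from -3.44 to 0.798, positive without the WT dCLN, and the kappa difference from -1.52 to 0.128, positive without the WT dCLN or WT iLN. The N length difference ranged from -0.0444 to 0.362, negative without the 5xFAD dCLN. In all, 11 of 216 recomputed values changed sign. Each library's share is limited by its number of cells.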

Other observations

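By number of heavy chain UMIs, G at position 226 was in 8 of 11 unswitched members with 1 to 2 UMIs (72.7%, 39.0 to 94.0) and 125 of 191 with 3 to 9 (65.4%, 58.2 to 72.2). It was in 80 of 124 with 10 to 20 (64.5%, 55.4 to 72.9) and 9 of 17 with 21 or more (52.9%, 27.8 to 77.0). The intervals overlapped. C268G was in 2 unswitched members, the most mutated IgM cells of the WT sCLN and 5xFAD sCLN. A315G was in 2 unswitched members, of the 5xFAD dCLN and WT sCLN, and in 1 cell of the mixed library.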
